A study of Homo sapiens with 4 samples.

Results

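The clustered protocadherins are the genes of the alpha, beta and gamma clusters, which lie side by side on the long arm of human chromosome 5. Members were the protein-coding genes whose GENCODE release 29 symbol is PCDHA, PCDHAC, PCDHB, PCDHGA, PCDHGB or PCDHGC with a number, and 53 of the 57500 genes in the files met this rule. There were 15 members in the alpha cluster (GRCh38, chr5:140786136-141012347), 16 in the beta cluster (chr5:141051135-141249365) and 22 in the gamma cluster (chr5:141330571-141512981), all on the plus strand. RNA was sequenced from SUM159 cells, a line of metaplastic, triple-negative breast cancer, with 1 parental library and 1 library for each of NOS2KO clones 1, 5 and 6. The clones had been transfected with a double nickase CRISPR plasmid against NOS2 and taken through puromycin. They were picked by immunoblot for iNOS, the enzyme NOS2 encodes, and by a nitrite/nitrate assay. All 4 libraries came from cells grown in DMEM with serum. Each clone is 1 library, as is the parental line. The loss of NOS2 and the derivation from single cells therefore cannot be told apart here, and the spread between the clones is the only replicate error.

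Clustered protocadherins are cell-surface proteins of the cadherin superfamily that bind the same isoform on a neighbouring cell, and they are best known from neurons, where each cell uses its own mixture of isoforms. Each alpha or gamma gene has its own promoter and its own large first exon, which encodes the extracellular and transmembrane parts and is spliced to constant exons that all genes of that cluster share and that encode a common cytoplasmic end. Beta genes carry their coding sequence in a large exon of their own and have no constant exons. The C-type genes at the far end of the alpha and gamma clusters are regulated differently from the others, and DNA methylation, the loop-forming protein CTCF and the chromatin protein SMCHD1 are known regulators of the locus.

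The promoters of the family share a short conserved element around the letters CGCT, and a selection of copies is shown, from members with a high level or a called difference, to show how alike they are within a cluster. Of the 53 members, 47 had a promoter sequence in RefSeq (GRCh38.p14; 250 bases before and 50 after the start, the most upstream start where there were 2). CGCT was found on either strand in 46 of these 47 promoters (97.9%), against 70.0% of all 35116 promoters of the same length. The longest run present in most of a cluster's promoters, within the bases before the start, had 14 bases in the alpha cluster (CACATGATGTCGCT, 7 of 13 promoters), 13 bases in the beta cluster (GGTGGCGCTGCAG, 9 of 14) and 8 bases in the gamma cluster (GCCGCTGT, 11 of 20). Counted on both strands of the whole window, the alpha run was in 0.0199% of all promoters, the beta run in 0.0427% and the gamma run in 1.63%. The runs were picked from the members' own promoters, which are part of these shares. Of the 7, 15 and 574 promoters with the alpha, beta and gamma run, 7, 10 and 11 were among the 47 of the members. No promoter of another cluster of the family held the run of a given cluster. The lines below give 30 bases of the plus strand, 5′ to 3′, around the best copy of the cluster's run, which is in capitals, for members whose copy lies outside every annotated exon.
PCDHA2: cttttagcCACATGATGTCGCTgtccacca
PCDHA4: tttggagcCACATGATGTCGCTctttacca
PCDHA6: tttggagcCGCATGATGTCGCTgtctacca
PCDHA8: tttgaagcCACATGATGTCGCTgtctacca
PCDHB2: agacgcggGGTGGCGCTGCAGccttagaag
PCDHB5: aaattaggacgcctGGTGGCGCTGCAGgct
PCDHB13: ggacgcgtGGTGGCGCTGCAGgataagaag
PCDHGA2: ggcctctgagcGTCGCTGTtgaccacctaa
PCDHGB5: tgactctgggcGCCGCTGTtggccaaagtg
PCDHGB7: agcctctgggcGCCGCCGTcggccagtgca
PCDHGC3: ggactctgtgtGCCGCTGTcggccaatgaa
These stretches are chr5:140794779-140794808 for PCDHA2, chr5:140806977-140807006 for PCDHA4, chr5:140827895-140827924 for PCDHA6 and chr5:140841128-140841157 for PCDHA8. In the beta cluster they are chr5:141094547-141094576 for PCDHB2, chr5:141135176-141135205 for PCDHB5 and chr5:141213868-141213897 for PCDHB13. In the gamma cluster they are chr5:141338706-141338735 for PCDHGA2, chr5:141397866-141397895 for PCDHGB5, chr5:141417586-141417615 for PCDHGB7 and chr5:141475883-141475912 for PCDHGC3. PCDHA6, PCDHGA2 and PCDHGB7 differed from the run of their cluster at 1 base, whereas the other printed copies matched it exactly. The last base of the copy lay at a median of 55.0 bases before the start over the 47 promoters. The copies of PCDHA9, PCDHAC1 and PCDHAC2, which are not printed, differed from the alpha run at 2, 5 and 6 bases. The letters CCCTC, which give CTCF its name, were in 12 of the 47 promoters (25.5%) and in 71.2% of all promoters, with 0 of 14 in the beta cluster. So short a string is not the CTCF motif, and its absence does not show that a promoter lacks a CTCF site. A match is a description of the sequence, and neither CGCT nor CCCTC was tested for binding.

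The targeted gene NOS2 was counted 2 times in parental cells and 3, 18 and 1 times in the libraries labelled clones 1, 5 and 6. A floor of 3 counts was passed by clone 5 alone. With 2 counts in the parental library, the mRNA of NOS2 cannot test the label of any clone. Clone 5 is named below as labelled, with values without it. The counts on genes came to 90467395 to 122171287 per library, and 3 counts correspond to 0.0262 to 0.0332 CPM (counts per 1e6 counts, scaled by TMM factors here and below). All 6 marker genes fixed for SUM159 (VIM, CD44, ZEB1, FN1, AXL and CAV1) were above the floor in every library, and ESR1 and PGR reached at most 0.741 and 0.0281 CPM. Of 21 neuronal marker genes 17 were tested, 1 met the criterion defined below as higher (TUBB3, a tubulin) and 2 as lower (RBFOX3, a splicing factor, and CHGB, a granin), and their summed level was 42.0 CPM in the parental library and 66.0 to 108.0 CPM in the clones, of which TUBB3 made up 2.73 CPM and 13.2 to 60.9 CPM. The median log2 fold change of the neuronal list was -0.07, with 2 genes higher and 7 lower in all clones. Of 5 leukocyte marker genes 3 were tested, and PTPRC, the leukocyte phosphatase CD45, met the criterion, at 4.45 CPM in the parental library and 41.7 to 105.4 CPM in the clones. CD3E had 0 counts in the parental library and 4, 8 and 0 in clones 1, 5 (as labelled) and 6. CD14 was lower in all clones, at 12.8 CPM in the parental library and 2.29, 4.28 and 11.3 CPM in the clones. ITGAM was lower too, with 32 counts against 4, 13 and 1, and neither met the criterion. The median log2 fold change of the 3 tested leukocyte genes was -1.11. None of 4 endothelial markers met it, although CDH5 went from 1 count to 12, 372 and 16. VWF had 19 counts in the parental library and 32, 405 and 212 in the clones, and KDR had 2 against 80, 33 and 2. PECAM1 went the other way, from 16.1 CPM to 13.9, 7.06 and 8.64 CPM. The part of these markers in the results below was not tested.

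To ask whether the family differed between the clones and the parental library, 49 of the 53 members had enough counts to be tested. Summed over all members, the level was 193.9 CPM in parental cells against 272.1, 548.7 and 648.3 CPM in clones 1, 5 (as labelled) and 6. All 49 tested members had a log2 fold change above 0, against 54.4% of the 22511 genes tested, with a median of 1.81 against 0.10 over all genes. With PCDHA8 and PCDHA9, which had 0 counts in the parental library, set at their lower bound, the median was 1.74. Without the filter on low counts, 51 of the 53 members were above 0 and 2 were below. The study's cut-offs were a p under 0.05 and a log2 fold change beyond 1, in a Wald test. The criterion here was these cut-offs on an unadjusted p, from edgeR's quasi-likelihood test unless another is named. It was met by 7 members as higher, of which 6 were alpha genes, 0 were beta genes and 1 was a gamma gene. These 6 alpha genes had 0 to 9 counts in the parental library and passed the filter on low counts only through the clones. The background was 4.24% of all tested genes for higher and 5.34% for lower, and no member met the criterion as lower. After adjustment over all genes, edgeR's quasi-likelihood test left 0 members under 0.05, and 1 gene of all those tested (0.00444%). The unadjusted p was under 0.05 for the same 7 members, against 11.5% of all genes. In DESeq2's Wald test 4 members, PCDHA3, PCDHA4, PCDHA6 and PCDHGB5, had an adjusted p under 0.05, all as higher, where the background was 3.13% for higher and 3.05% for lower. By the cut-offs of unadjusted p and fold change, DESeq2 named 18 members as higher, 6 alpha, 7 beta and 5 gamma, against 7.07% of all genes. The number of members that met the criterion as higher was 16 without clone 1, 9 without clone 5 as labelled and 5 without clone 6, against 8.18%, 3.2% and 2.89% of all genes in the same fits, and the member median was 1.91, 1.96 and 1.08. In bulk RNA, more cells that use a gene and more RNA per cell cannot be told apart.

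The direction held clone by clone less widely than in the fit. Of the 49 tested members, 29 were higher than in the parental library in all 3 clones (10 of 12 alpha, 10 of 15 beta and 9 of 22 gamma), against 28.6% of all genes. A log2 ratio above 1 in all 3 clones was seen for 15 members (9 alpha, 3 beta and 3 gamma), against 7.67% of all genes. For the alpha members the direction was partly fixed by the filter on low counts, which all but PCDHA1 passed only through the clones. Their counts are therefore a description. In clone 1 alone 32 members were higher and 17 lower, in the library labelled clone 5 alone 47 and 2, and in clone 6 alone 45 and 4, where the background for higher was 46.9%, 51.4% and 49.7%. The exact 95% counting interval of the ratio lay above 0 for 28, 40 and 41 members and below 0 for 12, 2 and 3 members in the same order. The parental library is shared by all 3 ratios, so they are not independent. The highest of the 4 libraries was clone 6 for 30 tested members, clone 5 as labelled for 15, clone 1 for 4 and the parental library for 0, against 21.7%, 22.6%, 25.2% and 30.5% of all genes.

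**Figure D1:**
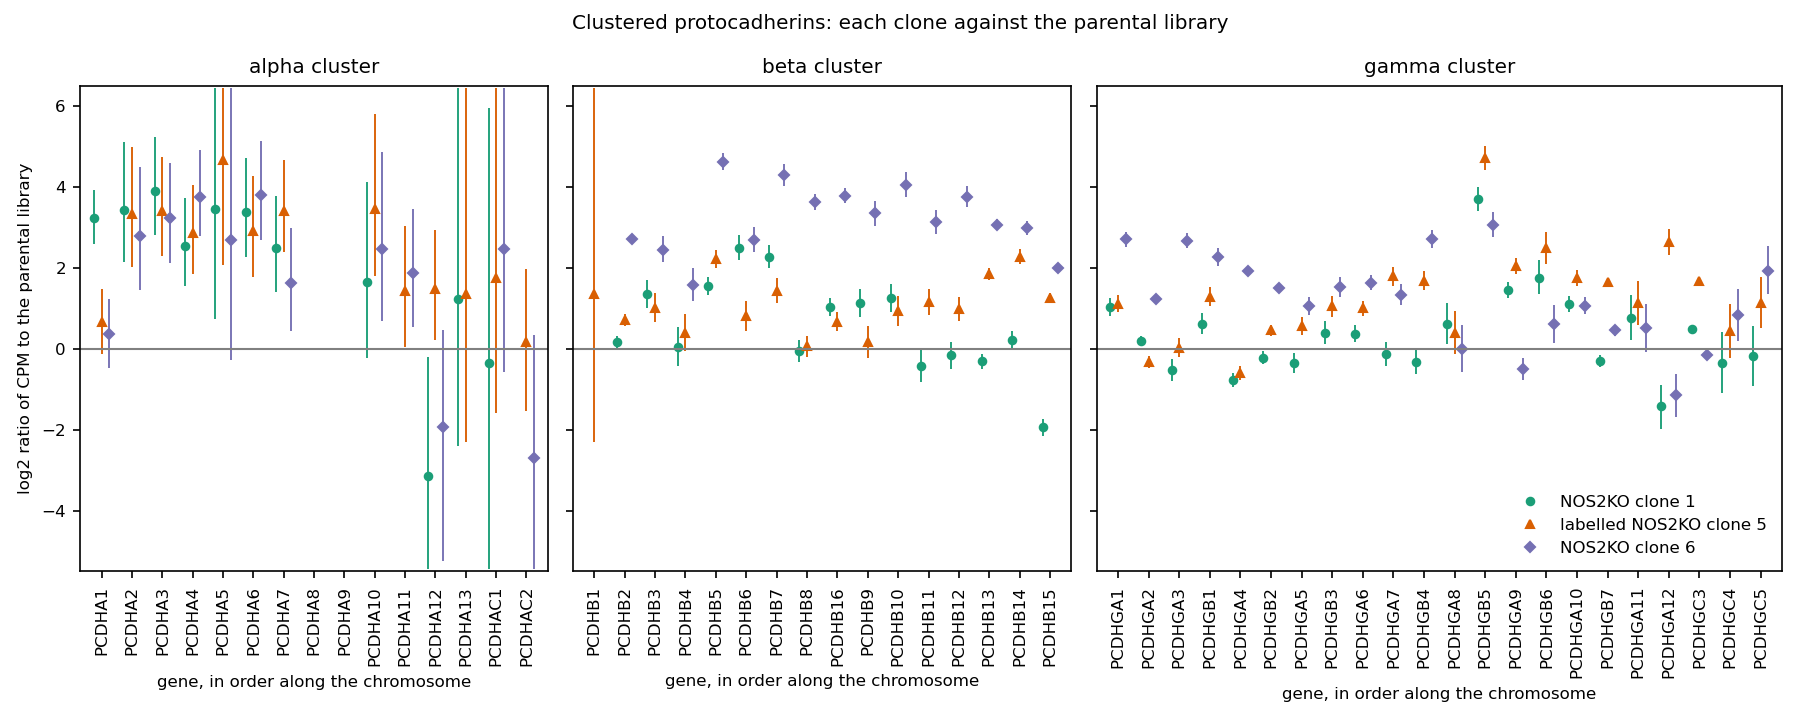
Log2 ratio of TMM-scaled CPM of each clone to the parental library (vertical axis) for every member in order along the chromosome (horizontal axis), in panels for the alpha, beta and gamma clusters. Symbols are the 3 clones, vertical lines are exact 95% counting intervals cut at the edge of the panel, and ratios with 0 counts on either side are not drawn. The points of PCDHA2 to PCDHA7 lie above 1 in all 3 clones, and those of clone 6 lie between 1.59 and 4.63 across PCDHB2 to PCDHB15.

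The size of the difference from the parental library and the clone that led varied between the 3 clusters, which was not tested. The summed alpha level was 0.918 CPM in the parental library and 6.32, 5.58 and 4.99 CPM in clone 1, the library labelled clone 5 and clone 6, a mean of 5.63 ± 0.667 CPM (SD, n = 3 clones), so the clones differed little among themselves. The summed beta level was 39.9 CPM in the parental library and 54.7, 100.4 and 369.1 CPM in the clones in the same order, so clone 6 stood well above the others. The summed gamma level was 153.1 CPM in the parental library and 211.0, 442.8 and 274.3 CPM, with the library labelled clone 5 highest. As ratios to the parental library these were 6.88, 6.08 and 5.43 for alpha, 1.37, 2.51 and 9.24 for beta and 1.38, 2.89 and 1.79 for gamma. Every clone was above the parental library in every cluster, but with 1 library against 3 the smallest p an exact permutation test allows is 0.25. The median log2 fold change was 3.16 in the alpha cluster (2.67 with the members at 0 set at their bound), 2.21 in the beta cluster and 1.14 in the gamma cluster, and the beta median was 0.86 without clone 6. All tested alpha members but PCDHA1 had at most 9 counts in the parental library and passed the filter on low counts only through the clones. Without that filter the alpha median was 2.69. The span between clones was wider than over all tested genes. The highest clone was over 1 on the log2 scale above the lowest for 8 of 11 alpha members with counts in all clones. The same held for 15 of 15 beta members and for 19 of 22 gamma members, against 41.8% of all tested genes. That share is not matched for level, and with median alpha counts of 12, 31 and 21 in the clones, counting error widens the alpha span.

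**Figure D2:**
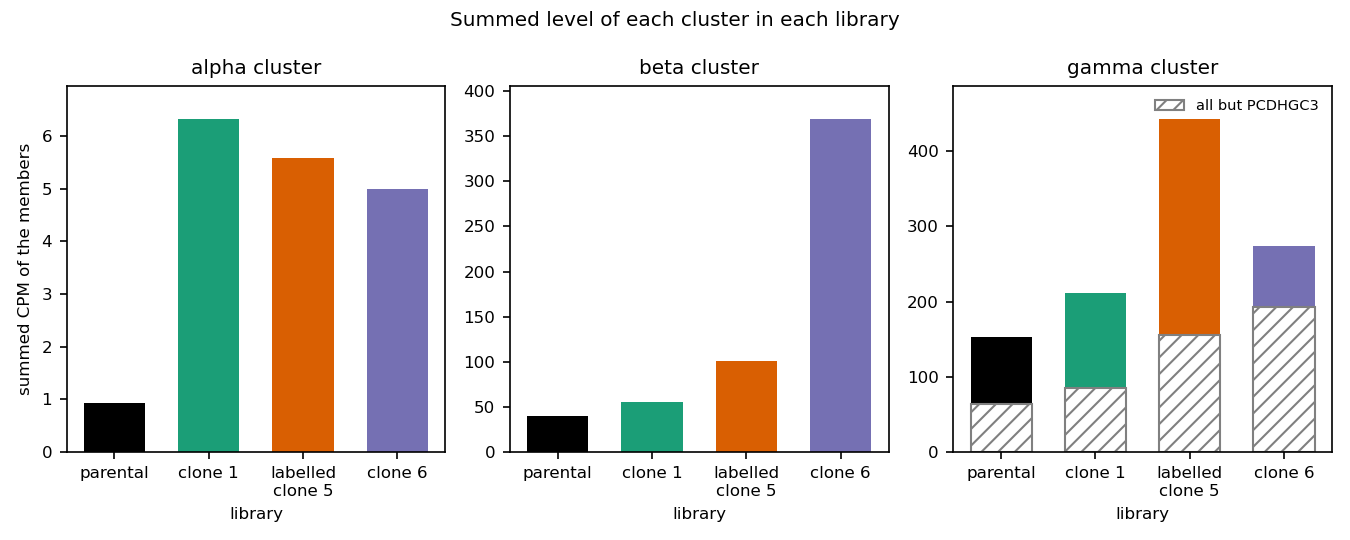
Summed TMM-scaled CPM of the members of each cluster (vertical axis, starting at 0 and scaled separately per panel) in each of the 4 libraries (horizontal axis), with no error bars because each bar is 1 library. The alpha bars of the 3 clones lie between 4.99 and 6.32 CPM, the beta bar of clone 6 reaches 369.1 CPM, and the hatched part of the gamma bars leaves out PCDHGC3.

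The alpha genes had the lowest summed level of the clusters and, in the fit over all clones, the highest median fold change, although in clone 6 the beta median log2 ratio (3.13) was above the alpha median (2.74). PCDHA3 had 7 counts in the parental library and 132, 87 and 72 in clones 1, 5 (as labelled) and 6, which is 0.0774 CPM against 1.15, 0.816 and 0.730 CPM. All 3 clones were above the parental value, and its log2 fold change was 3.52 (SE 0.68, adjusted p = 0.332 in edgeR's quasi-likelihood test and 0.00646 in DESeq2's). PCDHA6 had 7 counts in the parental library and 92, 62 and 106 in the clones, and a log2 fold change of 3.38 (SE 0.72, adjusted p = 0.332, edgeR). PCDHA2 had 5 counts against 69, 59 and 38, and its log2 fold change was 3.19 (SE 0.74, adjusted p = 0.342, edgeR). PCDHA4 had 9 counts against 67, 77 and 132, with clone 6 highest, and its log2 fold change was 3.13 (SE 0.79, adjusted p = 0.358, edgeR). Each of these 4 genes, which were picked because they met the criterion, encodes an isoform with its own extracellular part on the common alpha tail. Their clones all lay above the parental value, as did those of 28.6% of all genes.

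PCDHA8 and PCDHA9 had no counts in the parental library, so a fold is only a bound against 3 counts in that library. PCDHA8 had 12, 31 and 21 counts in the clones and was at least 3.15-fold, 8.76-fold and 6.42-fold higher. PCDHA9 had 4, 11 and 7 counts and was at least 1.05-fold, 3.11-fold and 2.14-fold higher, and the exact interval of its ratio in clone 1 reached down to -0.94 on the log2 scale. Both met the criterion, but their fitted log2 fold changes depend on the prior count, and the adjusted p was 0.334 and 0.428 (edgeR's quasi-likelihood test). Without clone 5 as labelled, PCDHA9 had too few counts to pass the filter and was not tested. PCDHA9 met the criterion no longer without clone 6, nor with DESeq2, robust estimation or bias-adjusted quasi-likelihood. PCDHA4 met it no longer without clone 6, and a filter of 1 CPM in a library removed PCDHA2, PCDHA8 and PCDHA9 from the test.

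PCDHA1, the first gene of the locus and the alpha gene with the highest mean level, was led by 1 clone. Its counts were 22 in parental cells and 261, 41 and 31 in clones 1, 5 (as labelled) and 6. In clone 1 the log2 ratio was 3.23 (exact 95% interval 2.60 to 3.92), whereas the intervals of the other two reached from -0.12 to 1.48 and from -0.47 to 1.23. The fit gave a log2 fold change of 2.02 (SE 1.37, adjusted p = 0.638, edgeR's quasi-likelihood test), and the value in clone 6 alone was 0.37. The share of PCDHA1 in all alpha counts was 26.5% in the parental library (exact 95% interval 17.4% to 37.3%), and 36.0%, 6.89% and 6.30% in clones 1, 5 (as labelled) and 6. In clone 6 the largest share of counts, 26.8%, was that of PCDHA4, which has 10574 exon bases of its own. Per length, PCDHA4 lay below PCDHA6 in clone 6, at 0.127 against 0.329 CPM per kb. PCDHA7, another isoform, was the highest alpha gene per length in the library labelled clone 5.

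The alpha genes were also summed by position. The 7 genes from PCDHA1 to PCDHA7 summed to 0.653 CPM in the parental library and to 6.03, 4.29 and 4.19 CPM in the clones, which is 9.24, 6.57 and 6.42 times the parental sum. The 6 genes from PCDHA8 to PCDHA13 summed to 0.188 CPM and to 0.279, 1.18 and 0.730 CPM, which is 1.48, 6.29 and 3.88 times. The sets lay close together in clone 5 as labelled, and this division was drawn after the values were seen and was not tested. In the second set, PCDHA11 had 6 counts in the parental library and 0, 19 and 24 in the clones, and PCDHA12 had 7 counts against 1, 23 and 2, so both overlapped with the parental value. Spearman's rho of the level per length against gene order was -0.34 in the parental library and -0.88, -0.73 and -0.84 in the clones, over 15 genes of 1 library each that share its depth.

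All 15 tested beta genes, PCDHB2 to PCDHB15, had their highest value of the 4 libraries in clone 6, where the share of all genes was 21.7%. Their log2 ratios ran from 1.59 to 4.63 in clone 6, from 0.06 to 2.27 in the library labelled clone 5 and from -1.94 to 2.49 in clone 1, with medians of 3.13, 0.98 and 0.21. PCDHB5 had 209 counts in the parental library and 782, 1151 and 5645 in the clones, which is 2.31 CPM against 6.82, 10.8 and 57.3 CPM. All clones were above the parental value and its log2 fold change was 3.43, the highest of the beta genes, with an SE of 1.28 and an adjusted p of 0.488 (edgeR's quasi-likelihood test). PCDHB2 had 6.68 CPM in the parental library and 7.53, 10.9 and 43.6 CPM in the clones (log2 fold change 1.63, SE 1.07, adjusted p = 0.625, edgeR). Both encode beta isoforms, which lack the common tail.

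In clone 1, 5 of the 15 tested beta genes (PCDHB8, PCDHB11, PCDHB12, PCDHB13 and PCDHB15) lay below the parental value. PCDHB13 had 5.34 CPM in the parental library and 4.31, 19.3 and 44.8 CPM in the clones (log2 fold change 2.09, SE 1.20, adjusted p = 0.592, edgeR's quasi-likelihood test). PCDHB15, the last gene of the cluster, had 769 counts in the parental library and 255, 2156 and 3365 in the clones, so clone 1 lay below the parental library and the others above. Its log2 ratio in clone 1 was -1.94 and its log2 fold change in the fit was 1.15 (SE 1.35, adjusted p = 0.780, edgeR). The share of PCDHB15 in all beta counts was 21.3% in the parental library, 20.1% in the library labelled clone 5, 9.25% in clone 6 and 4.06% in clone 1. By contrast, PCDHB6 went from 97 parental counts to 693 in clone 1 and 688 in clone 6, but to 200 in the library labelled clone 5.

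No beta gene met the criterion with all clones, and the call rested on which clone was included. Without clone 1, 4 beta genes met it (PCDHB5, PCDHB13, PCDHB14 and PCDHB15), without clone 5 as labelled 3 did (PCDHB5, PCDHB6 and PCDHB7), and without clone 6 it was 0, where 8.18%, 3.2% and 2.89% of all genes met it as higher. DESeq2's Wald test with the same criterion named 7 beta genes, against 7.07% of all genes. Counts of near-identical genes are uncertain, and up to 29.9% of the 100-base windows of a beta gene's transcripts also occur in another gene, highest for PCDHB8, whose main partner is PCDHB13. PCDHB8 had 220 counts in the parental library and 269, 271 and 2972 in the clones, with log2 ratios of -0.05, 0.06 and 3.63. PCDHB1, the first beta gene, stands apart from the others in sequence and had 1, 0, 3 and 0 counts.

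In the gamma cluster a single gene carried much of the RNA. PCDHGC3, a C-type gene, was counted 8119 times in parental cells and 14406, 30583 and 8026 times in clones 1, 5 (as labelled) and 6, which is 89.8, 125.6, 286.9 and 81.4 CPM. Clones 1 and 5 (as labelled) lay above the parental value and clone 6 just below it, at a log2 ratio of -0.14 (exact 95% interval -0.19 to -0.10). The log2 fold change was 0.87 (SE 0.75, adjusted p = 0.694, edgeR's quasi-likelihood test). Its share of all gamma counts was 58.7% in the parental library, 59.5% in clone 1 and 64.8% in clone 5 as labelled, whereas clone 6 had 29.7% (exact 95% interval 29.1% to 30.2%). Without PCDHGC3 the gamma sum was 63.2 CPM in the parental library and 85.4, 155.9 and 192.9 CPM in the clones, and clone 6 was then the highest.

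PCDHGB5, a B-type gene, was the gamma gene that met the criterion. It had 98 counts in the parental library and 1615, 3019 and 893 in the clones, which is 1.08 CPM against 14.1, 28.3 and 9.06 CPM, a mean of 17.2 ± 9.99 CPM (SD, n = 3 clones). The log2 ratios were 3.70, 4.71 and 3.06, and the lowest bound of their exact intervals was 2.76. The log2 fold change was 3.98 (SE 0.72, adjusted p = 0.332 in edgeR's quasi-likelihood test and 4.02e-05 in DESeq2's). It met the criterion without any 1 of the clones, and its share of all gamma counts went from 0.708% in the parental library to 6.67%, 6.40% and 3.30% in the clones. Its neighbours were less uniform. PCDHGA8, the gene before it, had 52, 101, 81 and 57 counts in the 4 libraries, and PCDHGA9, the gene after it, had 258 counts in the parental library and 900, 1251 and 199 in the clones. PCDHGA8 and PCDHGB4 each share 4447 exon bases within the cluster, against 2181 for PCDHGB5. Reads on these bases are hard to assign to 1 gene, so the contrast of PCDHGA8 with PCDHGB5 is uncertain.

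The first and the later gamma genes were led by different clones. From PCDHGA1 to PCDHGB4, clone 6 had the highest value of the 4 libraries for 10 of 11 genes (21.7% of all genes), and their sum was 44.4 CPM in the parental library and 45.4, 66.1 and 159.4 CPM in the clones. From PCDHGA8 to PCDHGA12, the library labelled clone 5 was highest for 7 of 8 genes, against 22.6% of all genes, and their sum was 18.1 CPM in the parental library and 39.4, 88.5 and 31.6 CPM in the clones. As ratios to the parental sum these were 1.02, 1.49 and 3.59 for the first set and 2.17, 4.88 and 1.74 for the second. The border was placed after the values were seen, so these counts are a description. PCDHGA2 in the first set had 844 counts in the parental library and 1221, 792 and 2156 in the clones, and its log2 fold change of 0.51 (SE 0.69, adjusted p = 0.800, edgeR's quasi-likelihood test) became -0.044 without clone 6. PCDHGB7 in the second set had 776 counts against 797, 2866 and 1160 (log2 fold change 0.82, SE 0.81, adjusted p = 0.731, edgeR). PCDHGA12, the last of the A-type genes, was at 93 counts in parental cells, 44 in clone 1 and 46 in clone 6, but at 681 in the library labelled clone 5.

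The other C-type genes and the members that were dropped stayed at low levels. PCDHGC4 had 32 counts in the parental library and 32, 51 and 62 in the clones (log2 fold change 0.38, SE 0.75, adjusted p = 0.867, edgeR's quasi-likelihood test). PCDHGC5 had 31 counts against 35, 80 and 129 (log2 fold change 1.20, SE 0.96, adjusted p = 0.678, edgeR). Both lay far below PCDHGC3, which ends on the same constant exons. The filter on low counts dropped 4 members, PCDHA13 with 1, 3, 3 and 0 counts in the parental library and clones 1, 5 (as labelled) and 6, PCDHAC1 with 1, 1, 4 and 6, PCDHAC2 with 6, 0, 8 and 1, and PCDHB1 as given above. The exact 95% interval of the ratio included 0 for these members wherever it could be formed, except for PCDHAC2 in clone 1, where it lay below -0.58 on the log2 scale.

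Levels of different members can be compared only per length, and here CPM was divided by the kilobases of exon that no other gene covers. On that scale PCDHGC3 was the highest gamma gene in each library, at 27.6 CPM per kb in the parental library and 38.6, 88.2 and 25.0 CPM per kb in the clones, which is 37.9, 42.7, 52.2 and 12.2 times the median gamma gene. The next gamma gene was PCDHGB7 at 3.08 CPM per kb in the parental library, PCDHGB5 at 5.27 and 10.6 CPM per kb in clone 1 and in the library labelled clone 5, and PCDHGA4 at 10.0 CPM per kb in clone 6. The effective number of gamma genes, the inverse of the sum of squared shares of the level per length, was 2.88, 2.79, 2.46 and 7.97 in the same order of libraries. The highest beta gene was PCDHB15 in the parental library (2.36 CPM per kb) and in the library labelled clone 5 (5.61 CPM per kb), and PCDHB5 in clone 1 (2.35 CPM per kb) and clone 6 (19.7 CPM per kb). The highest alpha gene was PCDHA1 in the parental library (0.104 CPM per kb) and in clone 1 (0.976 CPM per kb), PCDHA7 in the library labelled clone 5 (0.324 CPM per kb) and PCDHA6 in clone 6 (0.329 CPM per kb).

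**Figure D3:**
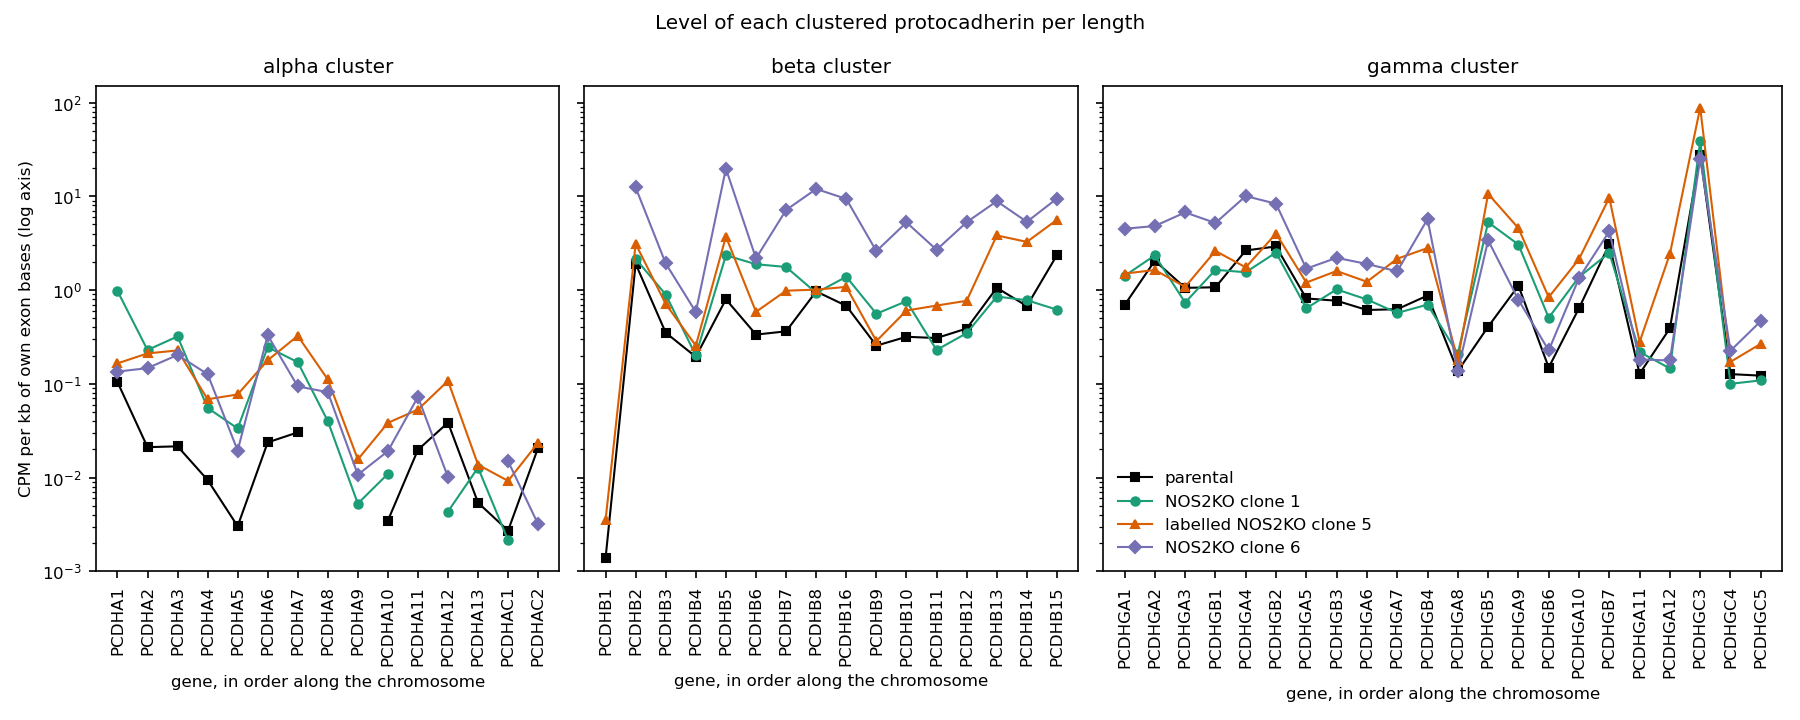
Level of every member in order along the chromosome (horizontal axis) as TMM-scaled CPM per kb of exon that no other gene covers (vertical axis, log scale), in each of the 4 libraries, with values of 0 not drawn and lines only to guide the eye. PCDHGC3 stands above the other gamma genes in each library, and the beta genes of clone 6 lie above those of the other libraries.

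What was counted bears on these levels. The alpha members share 2866 exon bases that belong to all 15 of them, the gamma members share 2181 that belong to all 22, and no beta member shares an exon base with another. PCDHA8 and PCDHA9 had 0 counts in the parental library although they contain the shared alpha exons, so reads on shared exons were not counted for every gene that holds them. The exon bases that no other gene covers ranged from 2011 to 10574 per alpha gene, 2519 to 8073 per beta gene and 2038 to 5729 per gamma gene. The 100-base windows of a gamma gene found in another gene, shared exons included, came to a median of 43.1% and to 52.1% for PCDHGB5. The kit does not mark strand, so reads of a member and of an antisense gene over it cannot be told apart, and antisense genes inside the locus had at most 27 counts in any library. PCDHB16 and PCDHB9 also overlap a non-coding transcript on their own strand that reached 77 counts in clone 6.

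Protein-coding genes around the clusters had smaller fold changes as a group. Of 35 protein-coding genes within 1 Mb on either side, 33 were tested, with a median log2 fold change of 0.11 (range -2.65 to 1.12), and 1 met the criterion as higher (NDUFA2, a subunit of respiratory complex I, 1.12) and 1 as lower (SPRY4, a feedback inhibitor of receptor kinase signalling, -1.03). The 680 tested protein-coding genes of chromosome 5 had a median of 0.01. TAF7, a general transcription factor gene between the beta and gamma clusters, had 3619 counts in the parental library and 6257, 5060 and 7136 in the clones (log2 fold change 0.54, adjusted p = 0.593, edgeR's quasi-likelihood test), and SLC25A2 beside it had 1, 0, 0 and 0 counts. Of 6 pseudogenes of the family inside the locus 5 were tested, with a median of 2.74. As higher, 1 met the criterion, against 4.24% of all genes, and this was PCDHGB8P, with 2 counts in the parental library and 20, 26 and 17 in the clones. PCDHGB8P and PCDHGB9P, which had 3 counts against 12, 27 and 36, passed the filter on low counts only through the clones. PCDHB18P, which lies between PCDHB14 and PCDHB15, had 93 counts in the parental library and 58, 340 and 1200 in the clones, with clone 6 highest and clone 1 lowest.

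**Figure D4:**
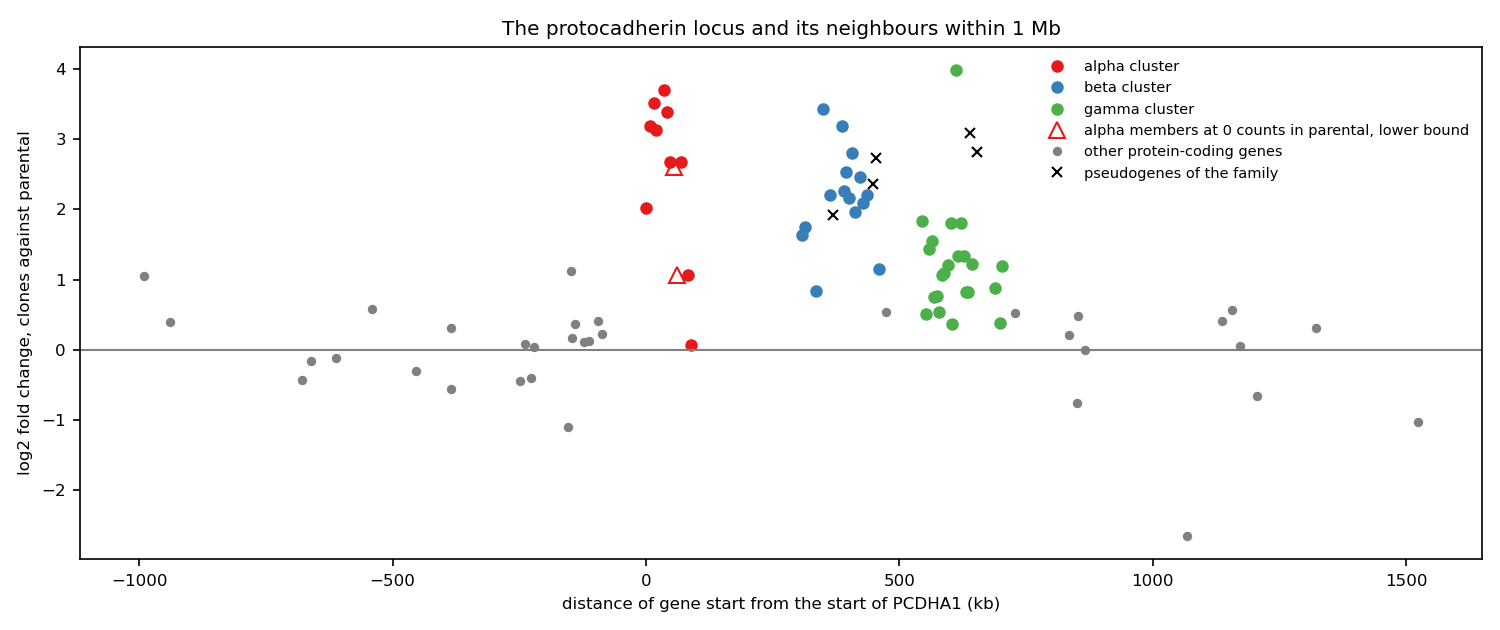
Log2 fold change of the clones against the parental library (vertical axis, edgeR) against the distance of each gene's start from the start of PCDHA1 in kb (horizontal axis), for tested members, pseudogenes of the family and other protein-coding genes within 1 Mb of the clusters. Open triangles are PCDHA8 and PCDHA9 at their lower bounds of 2.61 and 1.07. Members lie at or above 0.07, whereas the genes on either side range from -2.65 to 1.12, with a median of 0.11.

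Genes related to the family by function were counted in lists. Of 11 protocadherins outside the clusters 7 were tested, with a median log2 fold change of 1.45, and 2 met the criterion as higher. PCDH18 had 11.9 CPM in the parental library and 44.6, 119.4 and 222.8 CPM in the clones (log2 fold change 3.43, SE 0.87, adjusted p = 0.372 in edgeR's quasi-likelihood test and 0.00481 in DESeq2's). PCDH9 had 2.94 CPM against 12.5, 17.2 and 42.1 CPM (3.02, SE 0.76, adjusted p = 0.367, edgeR). PCDH1 had 23.9 CPM in parental cells against 7.81, 3.16 and 0.436 CPM, lower in all clones, and did not meet the criterion (-2.65, SE 1.42, adjusted p = 0.500, edgeR). Of 28 regulators of the locus, all tested, the median was -0.11, and 1 met the criterion in each direction, near the 4.24% and 5.34% of all genes. TET1, which oxidises methylated cytosine, met the criterion as higher, at 3.56 CPM in the parental library and 6.96 to 10.5 CPM in the clones (1.35, SE 0.46, adjusted p = 0.419, edgeR). TET3, of the same enzyme family, met it as lower, at 80.7 CPM and 32.0 to 41.4 CPM (-1.19, SE 0.30, adjusted p = 0.332, edgeR). CTCF (log2 fold change -0.13), SMCHD1 (-0.40) and REST (-0.50), a repressor of neuronal genes, did not meet it. Of 18 partners and proteases of the protocadherins, all tested, the median was -0.40, with 0 higher and 4 lower, against 4.24% and 5.34% of all genes. The kinase FYN was the largest of these (119.3 CPM in the parental library and 9.76 to 23.3 CPM in the clones, -2.92, SE 0.54, adjusted p = 0.275, edgeR's quasi-likelihood test), followed by AXIN1, a scaffold of Wnt signalling (-1.33), WASF1, an actin regulator (-1.10), and PTK2B, a focal adhesion kinase relative (-1.03).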

How the data were processed

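The authors deposited raw counts per gene for 57500 Ensembl genes in 4 libraries of poly(A)-enriched RNA made with a kit that keeps no strand. Per the labels' processing notes the tools were bcl2fastq 2.17, Trimmomatic 0.36, STAR 2.5.2b, featureCounts of Subread 1.5.2 and DESeq2, on GRCh38. How reads on shared exons or on several genes were counted is not given in the sources used here. Symbols and exons came from GENCODE 29, whose coordinates all 53 members matched. The members and lists were chosen with earlier results of these data known.

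The fit used edgeR 4.0.16 under R 4.3.3, with genes kept by filterByExpr, TMM scaling, glmQLFit and glmQLFTest, clones against parental, with Benjamini-Hochberg adjustment over the 22511 genes kept, 2 residual and 2.75 prior degrees of freedom. The labels do not say that the 3 clones came from separate cultures, and p-values measure only the spread between them. DESeq2 1.42.0, other scalings, filters, prior count, robust estimation, and fits without a clone or with 1 clone were alternatives, with bias-adjusted quasi-likelihood added after the data were seen. Ratios carry exact Clopper-Pearson 95% intervals, which like the floor of 3 counts cover counting error only. Named members are the 4 with the highest mean CPM per cluster, C types, PCDHB1, dropped members and those that met the criterion (p under 0.05, log2 fold change beyond 1). In each list and among the neighbours, the up to 3 largest changes that met it were named, with CTCF, REST, SMCHD1, TAF7 and SLC25A2. PCDHA7, PCDHA11, PCDHA12, PCDHB6, PCDHB8, PCDHB11, PCDHB12, PCDHGA4, PCDHGA8, PCDHGA9, PCDHGA12, PCDHB18P, and the members named for an alternative, were chosen after their values were seen. The fits and intervals were tested on simulated data. Tables and figures came from matplotlib 3.10.9, pandas 2.3.3, scipy 1.17.1 and numpy 2.4.6 in Python 3.11.15. CDH5, VWF, KDR, PECAM1, CD3E, CD14, ITGAM, PCDH1 and PTK2B were named after their values were seen, and protein sequences were not used here. A 95% interval that excludes 0 is not adjusted for the number of members.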

Additional observations from a re-analysis of the deposited data

How the results depend on the processing

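No member passed an adjusted p under 0.05 in edgeR under any alternative run, and all genes gave 1, against 5 with bias-adjusted quasi-likelihood, 6 without a filter, 1095 with DESeq2 and 0 to 0 with a clone left out. The criterion of p and fold change was met by 2157 genes, and by 1466 to 3399 with a clone left out. For the members the count was 7, against 18 with DESeq2, 4 with at least 1 CPM in a library, 11 without a filter, and 5 to 16 with a clone left out (16 without clone 1, 9 without clone 5 as labelled, 5 without clone 6). The alpha median of 3.16 became 2.66 in clone 6 alone, 2.69 without a filter and 2.498 with prior count 2. The beta median of 2.21 was 0.21 and the gamma median of 1.14 was 0.28 in clone 1 alone, and the beta median was 0.86 to 2.62 with a clone left out, lowest without clone 6. PCDHGA2 had a log2 fold change of 0.51, and of -0.044 to 0.82 with a clone left out, the lowest without clone 6 (adjusted p = 0.996, edgeR). In RLE, upper quartile and library size scaling 49 of 49 members stayed above 0, where upper quartile scaling moved the median of all genes from 0.10 to 0.20. Without a filter, 51 of 53 members were above 0 and 2 were below. Leaving out clone 5 as labelled gave 46 of 47 members above 0 and leaving out clone 6 gave 46 of 49, with member medians of 1.96 and 1.08. Dividing by all exon bases in place of own bases kept the highest gene of each cluster in each library. DESeq2 called 1591 genes higher and 1144 lower by the criterion, against 955 and 1202. No paired analysis was possible because the parental group has 1 library and shares fewer than 2 replicate numbers with the clones. The 3 clones are the only replicates, so parental cells are assumed to vary like them, and alpha genes with under 10 parental counts have wide counting intervals.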
